A study of Arabidopsis thaliana with 36 samples.

Results

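Pseudouridine (Ψ), the rotated isomer of uridine, was compared between young Arabidopsis tissues grown on plates and mature leaves. Seedling and shoot formed one side, and cauline leaf and rosetta leaf (spelled as in the labels) the other. Every site of the rRNA and tRNA tables with a value in the 4 tissues was taken, which gave 533 of 535 sites, namely 186 of 186 in rRNA and 347 of 349 in tRNA. A site counted as separated where both values of one side lay above both values of the other, and the gap is the distance between the nearest values of the 2 sides. The difference given below is the mean of seedling and shoot minus the mean of the leaf types.

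The series covered total RNA of 9 tissues of the wild-type accession Col-0 by BID-seq, in which bisulfite marks Ψ so that reverse transcription leaves a deletion at that base. Each tissue had 2 treated and 2 untreated input libraries, 16 libraries for the 4 tissues used here. Whole seedlings were harvested after a week on medium plates and shoots, with the roots taken separately, a week later. Rosetta leaves came from plants moved to soil and grown for a month, and cauline leaves, the small leaves on the flowering stem, from soil after flowering. Age, medium and organ therefore all went with the side and cannot be told apart. The tables hold a Ψ fraction (the share of molecules with Ψ, between 0 and 1) and no expression values, so the tissue labels could not be checked against marker genes.

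For each tissue the authors merged both replicates before they computed the fraction. No replicate spread, depth or interval stands behind a value, and the nearest yardstick is the distance between the 2 tissues of a side. Neither tissues nor sites are replicates, so no p-value was computed for a site. A flag from the authors also says whether a site passed their filter in a tissue.

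Most Ψ in nuclear rRNA is made by dyskerin, a synthase led to its targets by H/ACA small nucleolar RNAs. The rRNAs of chloroplasts and mitochondria and nearly all tRNAs are instead modified by stand-alone synthases, each at particular positions. In yeast, Pus7 modifies tRNA position 13 in the D arm, Pus1 positions 27 and 28 in the anticodon stem, Pus3 position 39 at the foot of that stem, and Pus4, like bacterial TruB, position 55 of the T loop. In bacteria, RluD modifies the hairpin of the large subunit rRNA known as H69, which touches the small subunit at the decoding centre.

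The stretches on which the results turn are shown first, 5′ to 3′ as RNA, with listed Ψ sites in capitals. They are an 18S stretch holding the site with the largest gap of all (chr2:4879-4905, plus strand, positions 1174 to 1200 of the 18S), the 25S site with the largest gap in the other direction (chr2:7688-7708, plus strand, positions 1555 to 1575), and H69 of the nuclear 25S (chr2:8380-8407, plus strand, from position 2247), the chloroplast 23S (Pt:106608-106635, plus strand, from position 1918) and the mitochondrial 26S (Mt:141725-141752, minus strand, from position 1528). Coordinates are those of the TAIR10.1 assembly. The mitochondrial ones are approximate, and reads of the rDNA copy on chromosome 3 cannot be told from those of chromosome 2.
Nu-18S: gagccUgcggcUuaauuUgacUcaaca
Nu-25S 1565: gaaacccgucUgauagcgcuu
Nu-25S H69: ggugggagUaacUaUgacUcUcuuaagg
Pt-23S H69: ggcggccgUaacUaUaacgguccuaagg
Mt-26S H69: ggcggcagUaacUcUaacUguccuaagg

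Seedling and shoot carried more Ψ than both leaf types at 104 of 186 rRNA sites (55.9% of the table) and less at 17 (9.14%). The other 65 sites (34.9%) were not separated, which leaves 121 (65.1%) separated in either direction. The median rRNA fraction was 0.4495 in seedling and 0.502 in shoot, against 0.361 in cauline leaf and 0.3665 in rosetta leaf. Both young tissues thus lay above both leaf types. An exact two-sided permutation test of the 4 medians gave p = 0.333, the smallest it can give with 2 tissues a side. Since p could not have been small whatever the values, and the test treats tissues as replicates, nothing is concluded from it. Site by site the difference had a median of 0.0228. Its absolute size had a median of 0.029, against 0.014 between shoot and seedling and 0.01 between cauline and rosetta leaf. In the median the sides thus lay farther apart than the tissues within them. The side mean was higher in seedling and shoot at 144 sites and lower at 32. With a gap of at least 0.05, 43 sites (23.1%) were higher and 3 (1.61%) lower. With a gap above the larger distance within a side, 71 (38.2%) were higher and 8 (4.3%) lower.

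In tRNA the direction was the same and the excess smaller, with 132 of 347 sites (38%) higher in seedling and shoot, 56 (16.1%) lower and 159 (45.8%) not separated, so that 188 (54.2%) were separated in either direction. The median tRNA fraction was 0.914 in seedling and 0.923 in shoot, against 0.882 in cauline leaf and 0.865 in rosetta leaf (p = 0.333 in the same exact permutation test, again the smallest possible). The median difference over sites was 0.008, and its median absolute size of 0.024 was close to the 0.015 between shoot and seedling and the 0.018 between the leaf types. A gap of at least 0.05 was reached by 55 sites in the upward direction (15.9%) and by 8 in the downward one (2.31%), and a gap above the larger distance within a side by 61 (17.6%) and 12 (3.46%). Among tRNA rows, 25 share their position and all 4 values with another row, in part as ties at 1, and 334 remained when such rows were counted once.

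**Figure D1:**
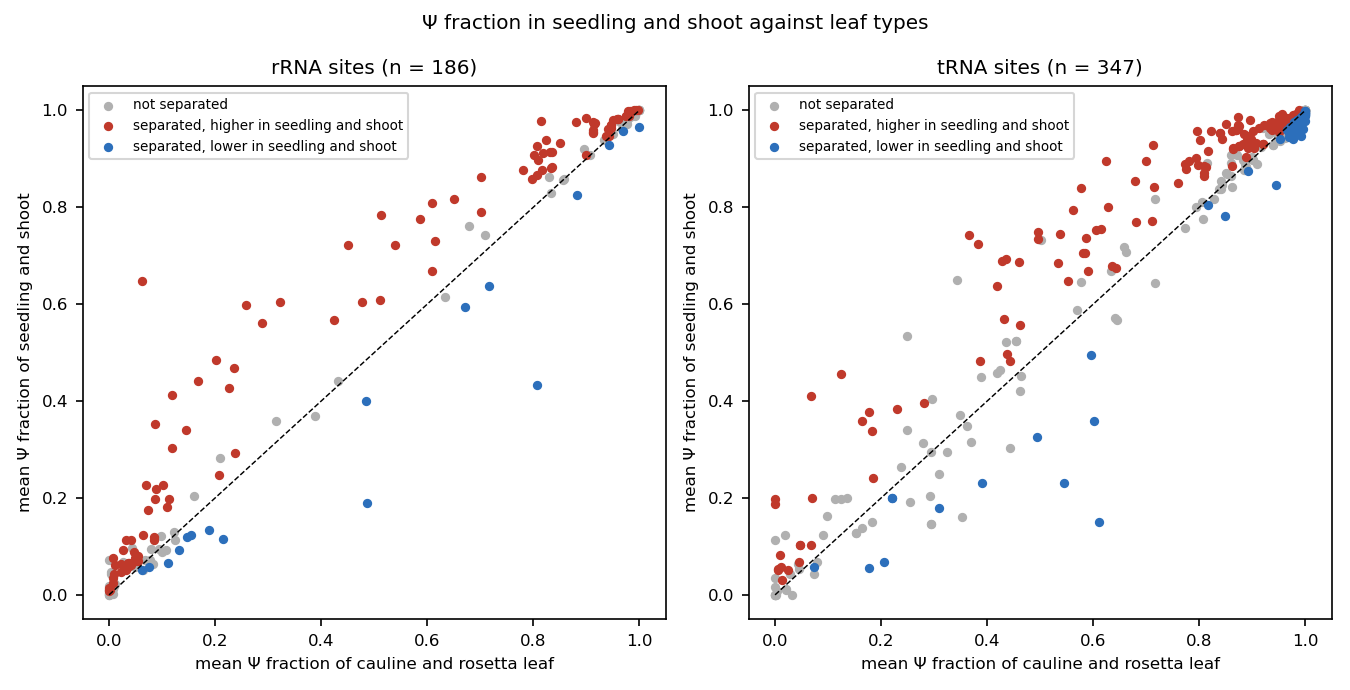
Mean Ψ fraction of seedling and shoot (vertical axis) against that of cauline and rosetta leaf (horizontal axis) for each rRNA site (left) and tRNA site (right), with the dashed line at equality. In rRNA 104 sites are separated above the line and 17 below it, and in tRNA 132 above and 56 below, the lower ones mostly crowded near a fraction of 1.

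Higher sites outnumbered lower ones at every level in both tables, by margins that varied with the level. Of rRNA sites with a mean over the 4 tissues under 0.1, 27 of 60 were higher and 3 lower. Between 0.1 and 0.5 the counts were 23 and 7 of 38, between 0.5 and 0.9 they were 27 and 4 of 38, and at 0.9 and over 27 and 3 of 50. Differences were widest in the 2 middle bands, with medians of 0.0795 and 0.0835, where a fraction is far from both ends of its scale. In tRNA, 12 of 31 sites under 0.1 were higher and 1 lower, and between 0.1 and 0.5 the counts were nearly even, at 12 and 10 of 57. The band from 0.5 to 0.9 held 52 higher and 5 lower of 92 sites, with a median difference of 0.0693, whereas among the 167 sites at 0.9 and over 56 were higher and 40 lower. Those 40 near-saturated sites made up most of the 56 tRNA sites that were lower in seedling and shoot.

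The other 5 tissues placed the 4 among all 9. At 45 of the 104 higher rRNA sites both seedling and shoot also exceeded stem, root, flower, silique and seed, and at 25 both leaf types lay below those 5. Over these 104 sites the median fraction was 0.654 in seedling and 0.7055 in shoot, between 0.4475 (root) and 0.588 (flower) in the 5 other tissues, and 0.478 in cauline leaf and 0.4875 in rosetta leaf. The sites were chosen for high values in seedling and shoot beside the leaf types. The order of those 4 medians therefore restates the rule, and the choice also favours seedling and shoot over the 5 other tissues. In tRNA, 58 of the 132 higher sites had seedling and shoot above those 5 tissues. At the lower tRNA sites both leaf types exceeded the 5 tissues at 23 of the 55 sites with a value in all 9. How often a side lay below the 5 tissues depends on root, whose tRNA median was 0.738 and which was lowest of the 9 over the 104 rRNA sites. Such counts, the 25 above among them, are not read further. None of these counts was made over all sites of a table, so they have no background share.

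The largest gap of all belonged to Nu-18S position 1179 (chr2:4884, inside the 18S gene AT2G01010). Its fraction was 0.630 in seedling and 0.665 in shoot, against 0.071 in cauline leaf and 0.053 in rosetta leaf, a gap of 0.559. It passed the authors' filter in seedling and shoot and in neither leaf type, and it also passed in stem, root, flower, silique and seed. Root (0.527) and seed (0.5) were also high, and stem (0.159), silique (0.140) and flower (0.123) were low, so the 9 tissues fell into 4 above 0.4 and 5 below 0.2. The other 3 listed sites of the printed 18S stretch differed in direction. Position 1185 was slightly lower in seedling and shoot, at 0.815 and 0.835, against 0.877 in cauline leaf and 0.886 in rosetta leaf. Position 1191 was higher, at 0.657 and 0.551, against 0.296 and 0.347 in the leaf types. Position 1195, which the study places in the decoding region of the small subunit, was not separated, at 0.824 and 0.835, against 0.822 and 0.844.

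**Figure D2:**
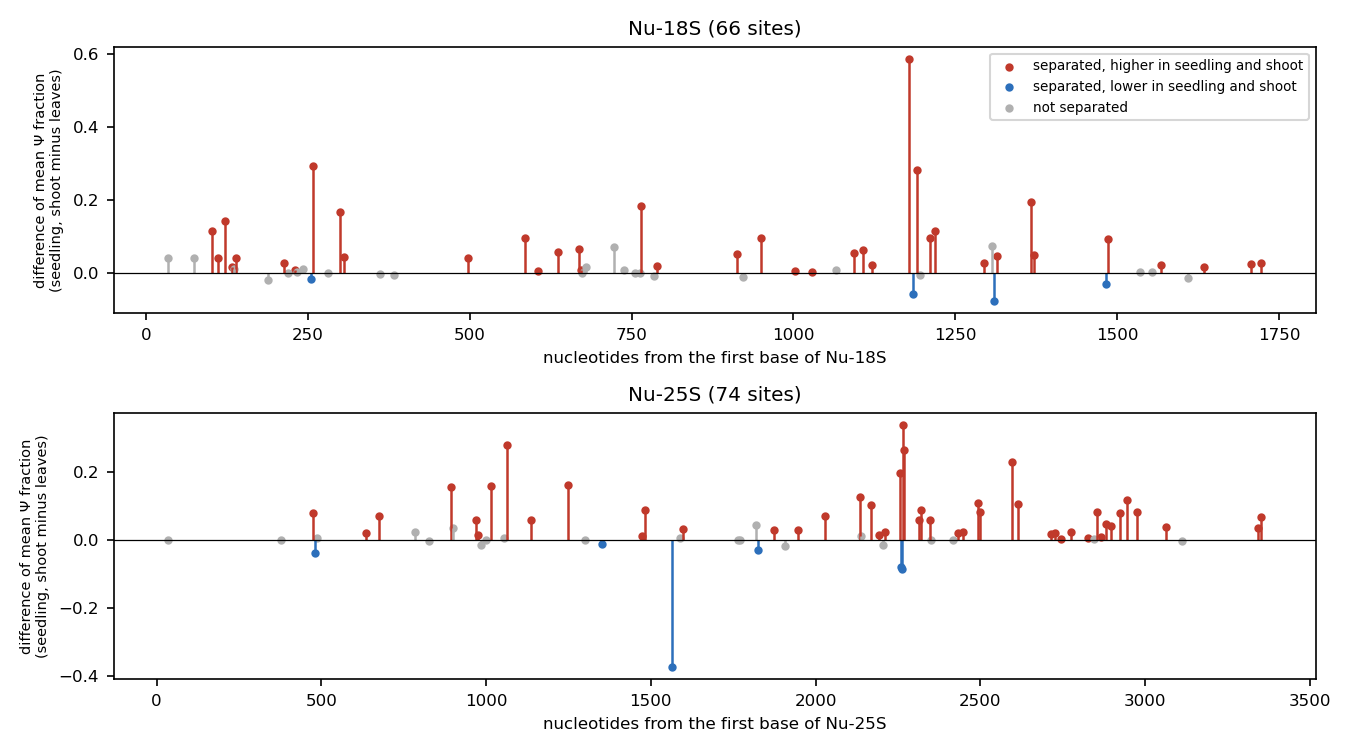
Difference of the mean Ψ fraction (seedling and shoot minus the leaf types, vertical axis) at each site along the nuclear 18S (top) and 25S (bottom) rRNA, with the position in nucleotides on the horizontal axis. Position 1179 of the 18S is the tallest bar and position 1565 of the 25S the deepest. With the 25S cut into 3 equal parts up to its last listed site, 27 of 33 sites in the last part are separated upwards.

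A second close pair in the 18S also ran in opposite directions. Position 258 (chr2:3963) stood at 0.385 in seedling and 0.440 in shoot, against 0.106 in cauline leaf and 0.131 in rosetta leaf. Position 255, 3 bases upstream, was near saturation and marginally lower, at 0.929 and 0.926, against 0.944 and 0.941 in the leaf types. Over the whole 18S, 38 of 66 sites were higher (57.6%, near the 55.9% over the rRNA table) and 4 lower. The lower ones besides 255 and 1185 were position 1309 (0.642 and 0.548, against 0.672 and 0.669) and position 1482 (0.117 and 0.131, against 0.147 and 0.161). All 4 had small gaps, of at most 0.042.

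The 25S had 47 higher (63.5%, beside 55.9% over the rRNA table) and 6 lower of 74 sites. The 25S up to its last listed site was cut into 3 parts of equal length. The 5′ part had 8 of 18 sites higher, the middle 12 of 23 and the 3′ part 27 of 33 (81.8%, beside 55.9% over the table). The 3′ part holds the peptidyl transferase centre. In that 3′ part the median fraction was 0.907 for seedling and shoot and 0.8305 for the leaf types, and the median difference was 0.0405. Examples are position 2945 (0.924 and 0.929, against 0.810 and 0.805), position 2498 (0.915 and 0.913, against 0.830 and 0.831) and position 2597 (0.446 and 0.489, against 0.249 and 0.223), chosen after their values were seen. At each of these the 2 tissues of a side lay within 0.05 of each other and the sides farther apart. Position 1063 (chr2:7196), in the 5′ part, was another of the widest gaps, at 0.453 and 0.515, against 0.177 in cauline leaf and 0.227 in rosetta leaf.

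Position 1565 of the 25S (chr2:7698) was the clearest exception. Its fraction was 0.517 in seedling and 0.349 in shoot, against 0.775 in cauline leaf and 0.839 in rosetta leaf, a gap of 0.258 in favour of the leaves, and it passed the filter in all 4 tissues. The leaf values stood above every other tissue, since stem reached 0.484, flower 0.411, silique 0.389, root 0.359 and seed 0.112. The only other nuclear site with a leaf excess of that size, upstream of the 18S at chr2:3699 (0.205 and 0.176, against 0.539 and 0.435), passed the filter in none of the 4 tissues.

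H69 allowed the same hairpin to be compared in 3 genomes. The 21 bases around chloroplast position 1932 were identical at 18 to those around mitochondrial position 1542 and at 15 to those around position 2261 of the 25S, so these 3 sites, and the pairs upstream of them, lie at matching places. In the chloroplast all 3 sites were higher in seedling and shoot. Position 1932 stood at 0.710 and 0.733, against 0.401 in cauline leaf and 0.5 in rosetta leaf. Position 1930 stood at 0.758 and 0.792, against 0.554 and 0.617, and position 1926 at 0.401 and 0.453, against 0.162 and 0.290. No value of the leaf types reached the young tissues at any of the 3.

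In the nuclear 25S the matching loop sites ran the other way. Position 2261 was lower in seedling and shoot, at 0.396 and 0.402, against 0.466 in cauline leaf and 0.502 in rosetta leaf, and so by a narrow gap was position 2259, at 0.660 and 0.616, against 0.671 and 0.762. The first site of the hairpin, 2255, was higher (0.811 and 0.805, against 0.492 and 0.726). The 2 sites just 3′ of the loop, where the chloroplast has no listed site, had gaps among the widest in rRNA, with position 2265 at 0.626 and 0.569, against 0.280 and 0.236, and position 2267 at 0.304 and 0.401, against 0.086 and 0.087. Within a stretch of 13 bases the young tissues were thus above the leaves at both ends and below them in the loop.

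In the mitochondrial hairpin position 1536 was higher in seedling and shoot (0.737 and 0.832, against 0.623 and 0.402), and positions 1540, 1542 and 1546 were not separated. Matching uridines of the 3 genomes therefore had different orders of the tissues at 2 of 3 places, and the same order at the first. These differences between genomes were not tested, as each rests on 4 pooled values.

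**Figure D3:**
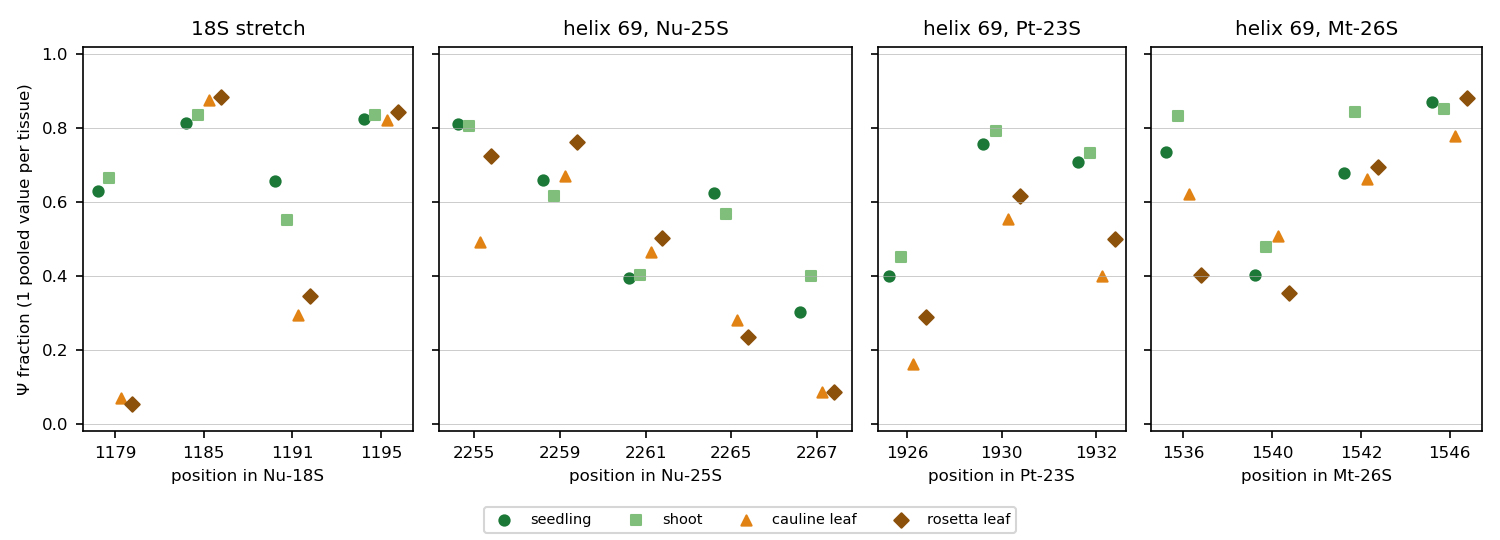
Ψ fraction (vertical axis, 1 pooled value per tissue) of the listed sites in the 18S stretch and in H69 (helix 69) of the nuclear 25S, chloroplast 23S and mitochondrial 26S rRNA, with the position in each rRNA on the horizontal axis. Seedling and shoot lie above both leaf types at all 3 chloroplast sites, and below them at 25S positions 2259 and 2261.

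Outside H69, the chloroplast 23S had 7 of 13 sites higher and 1 lower. With H69, 10 of 16 were higher (62.5%, beside 55.9% over the rRNA table). The lower one, position 2700, was at 0.141 and 0.127, against 0.188 in cauline leaf and 0.189 in rosetta leaf. Position 2623, the target of the chloroplast synthase SVR1 and the most highly modified of the 23S sites, was not separated (0.963 and 0.961, against 0.962 and 0.972). In the mitochondrial 26S outside H69, 2 of 7 sites were higher and 4 lower (3 and 4 of 11 with H69). With H69, 27.3% of the 26S sites were higher and 36.4% lower, unlike the 55.9% and 9.14% over the rRNA table. Its widest gap was position 2116 (Mt:141164, minus strand), at 0.445 and 0.436, against 0.182 in cauline leaf and 0.154 in rosetta leaf. The 4 lower sites had gaps of at most 0.021, reached at position 2192 (0.979 and 0.950, against 1 in both leaf types). The Nu-5.8S had 2 higher sites of 6 (33.3%), led by position 22 (0.675 and 0.769, against 0.523 and 0.556).

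A group of 11 rRNA sites passed the authors' filter in seedling and shoot and in neither leaf type, and all 11 were separated upwards. Apart from 18S position 1179 and 18S position 764 (0.306 and 0.300, against 0.143 and 0.095), the remaining 9 were weak, with a median fraction of 0.072 in seedling and 0.082 in shoot, against 0.053 in cauline leaf and 0.044 in rosetta leaf. In the other direction 1 rRNA site passed in both leaf types and in neither seedling nor shoot. The flag and the fraction come from the same reads, so the flag is no independent measure. In tRNA the 2 kinds were even, with 4 sites each.

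Runs of uridine also bear on the placing of a deletion, since a lost base in a run cannot be assigned to one of its members. Sites standing alone were higher at 56 and lower at 13 of 106, sites in runs of 2 at 26 and 3 of 42, and sites in runs of 3 or more at 18 and 0 of 25. All 3 classes thus had more higher than lower sites.

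tRNA sites were next grouped by the place of the base in the folded molecule, since yeast synthases differ in the places they modify. Listed positions count along each tRNA's own sequence, so conventional numbers were assigned from matched genes to 293 sites. Examples from each class are printed with the Ψ site in capitals. They are position 13 of Gln-TTG-1-nuclei (identical in 6 matched genes on chromosomes 1, 3 and 5), position 39 of Arg-CCG-3-nuclei (within AT3G12585, chr3:3995097-3995169, minus strand), position 39 of the chloroplast tRNA Leu-CAA-3-PT, and 2 sites with more Ψ in leaves, conventional position 33 of Tyr-GTA-1-a-nuclei and 27 of Ile-AAT-1-nuclei.
Gln-TTG-1-nuclei 13: uucuauggugUagugguuagc
Arg-CCG-3-nuclei 39: agacuccgaaUcuaaaggucg
Leu-CAA-3-PT 39: agacucaaaaUcucgugcuaa
Tyr-GTA-1-a-nuclei 35: agcaaaggacUguaaauccuu
Ile-AAT-1-nuclei 28: gguuagagcgUcgugcuaaua

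Position 13, the D-arm target of Pus7 in yeast, was the most one-sided of the positions with over 10 sites. Of 21 sites, all in nuclear tRNAs, 18 (85.7%, beside 38% over the table) were higher in seedling and shoot and none was lower, with a median difference of 0.0485. The median fraction was 0.963 in seedling and 0.969 in shoot, against 0.889 in cauline leaf and 0.864 in rosetta leaf. Among sites with a mean of 0.9 and over, 13 at position 13 were higher and 0 lower, whereas the whole band had 56 higher and 40 lower of 167. All 17 position 13 sites with a single 5-base context read UNUAG (N any base, Ψ at the third letter, transcript strand), which is 17 of the 19 matches among 269 tRNA sites with such a context (7.06% of them).

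The Pro tRNAs carried the widest position 13 gaps, with 7 of 7 higher. Pro-AGG-2-nuclei stood at 0.963 in seedling and 0.953 in shoot, against 0.770 in cauline leaf and 0.821 in rosetta leaf. Pro-CGG-1-nuclei stood at 0.953 and 0.960, against 0.787 and 0.857. Pro-AGG-1-nuclei and Pro-TGG-1-nuclei list the same 4 values, and the 7 rows are therefore not independent. Val tRNAs had 3 of 3 higher, from Val-CAC-1-nuclei (0.954 and 0.924, against 0.759 and 0.845) to Val-TAC-2-nuclei with a gap of 0.008. The 3 sites that were not separated were those of Asp-GTC-1-nuclei, Gln-CTG-2-nuclei and His-GTG-2-nuclei. Asp-GTC-1-nuclei was at 0.802 and 0.821, against 0.824 and 0.786. Over all positions, Pro tRNAs had 20 higher and 2 lower of 30 sites.

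Position 39, the Pus3 target next to the anticodon loop, had 21 of 35 sites higher (60%, beside 38% over the table) and 1 lower. Its median difference of 0.084 was the largest absolute shift after 28 among positions with over 10 sites. By level, 7 of 11 were higher at 0.9 and over, 12 of 17 between 0.5 and 0.9 and 2 of 7 under 0.5. The tRNA table had 33.5% higher at 0.9 and over and 56.5% between 0.5 and 0.9. Ser tRNAs were prominent at this position, with 6 of 7 higher, but over all positions they had 13 higher and 9 lower of 41 sites. Ser-TGA-1-nuclei stood at 0.661 in seedling and 0.713 in shoot, against 0.497 in cauline leaf and 0.424 in rosetta leaf. Ser-CGA-1-nuclei stood at 0.903 and 0.887, against 0.725 and 0.672. At both, the leaf types lay below the young tissues by more than the tissues of a side differed. Arg-CCG-3-nuclei had 0.848 and 0.739, against 0.599 and 0.525. The Cys tRNA site listed at 38, which is conventional 39 in Cys-GCA-2-nuclei, had 0.874 and 0.982, against 0.702 and 0.724. Of the 4 tissues it passed the filter in shoot and rosetta leaf only. The site listed at 38 in Cys-GCA-1-nuclei was not separated, at 0.719 and 0.747, against 0.719 in cauline leaf and 0.283 in rosetta leaf. The chloroplast tRNA Leu-CAA-3-PT had 0.347 and 0.408, against 0.183 and 0.172. The order of the sides was thus the same in this plastid tRNA. The exception was Leu-CAA-1-nuclei (listed at 40), weakly modified at 0.073 and 0.064, against 0.279 in cauline leaf and 0.131 in rosetta leaf. By genome, 15 of 25 nuclear, 3 of 6 chloroplast and 2 of 3 joint nuclear and mitochondrial sites were higher, and the single mitochondrial one was too.

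Positions 27 and 28, neighbours in the anticodon stem and both Pus1 targets in yeast, differed from each other. They also differed in level, with medians in the 4 tissues from 0.515 to 0.63 at 27 and from 0.7645 to 0.905 at 28. Over all tRNA sites the share of higher ones was 21.1% between 0.1 and 0.5 and 56.5% between 0.5 and 0.9. Position and level were not tested apart. All 4 tissues passed at 18 of 33 sites at 27 and 9 of 12 at 28. At 28, 9 of 12 sites were higher (75%, beside 38% over the table) and none lower, with a median difference of 0.0922. The chloroplast tRNA Asn-GTT-4-PT had 0.624 in seedling and 0.755 in shoot, against 0.503 in cauline leaf and 0.351 in rosetta leaf. At 27, 7 of 33 were higher (21.2%, below the share over the table) and 4 lower, and the median difference was 0.0045. The lower ones included some of the widest gaps towards leaves. Ile-AAT-1-nuclei (listed at 28) stood at 0.335 and 0.127, against 0.574 and 0.515, and Ile-AAT-2-nuclei, with the same 21 bases around it, at 0.177 and 0.285, against 0.347 and 0.432. Thr-TGT-1-nuclei (listed at 26) had 0.363 and 0.287, against 0.570 and 0.418, and Ser-GCT-2-nuclei-Mt (listed at 28) had 0.453 and 0.263, against 0.650 and 0.554. These 4 each passed the filter in 1 or 2 of the 4 tissues.

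**Figure D4:**
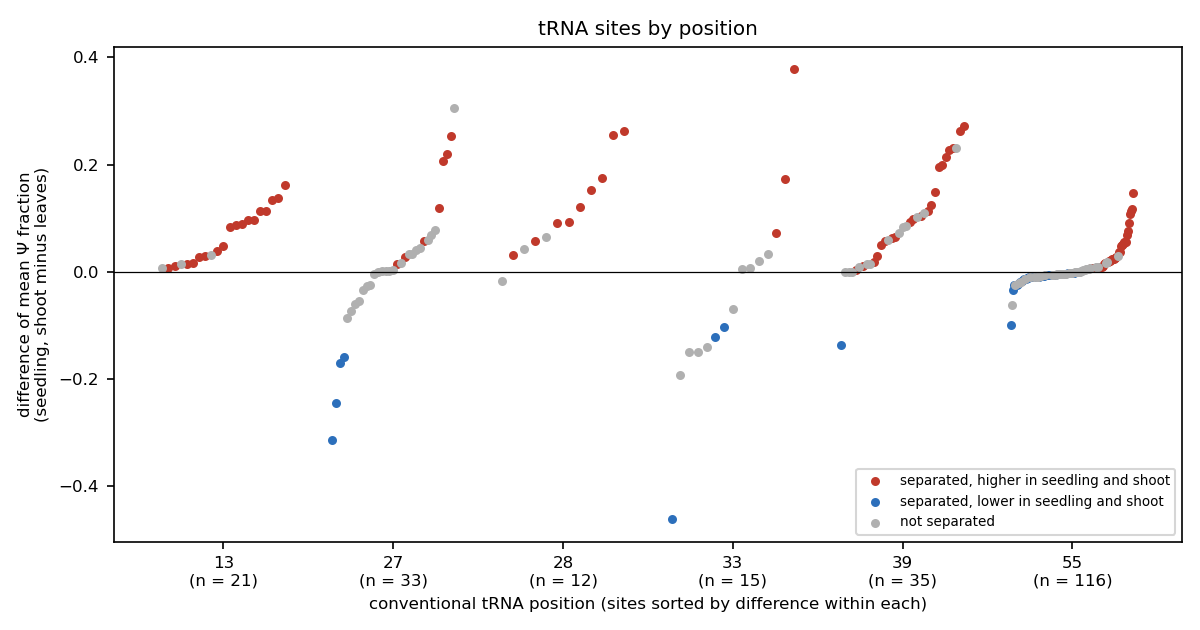
Difference of the mean Ψ fraction (seedling and shoot minus the leaf types, vertical axis) of tRNA sites at 6 conventional positions (horizontal axis), sorted by size within each. Position 13 has 18 sites separated upwards and none downwards, position 39 has 21 and 1, and the 116 sites at position 55 lie close to 0 with 35 and 33.

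Position 55, the near-universal T-loop Ψ, was nearly even. Of 116 sites, 35 were higher and 33 lower, and the median difference was -0.0015. The median fraction was 0.974 in seedling and 0.9705 in shoot, against 0.9745 in cauline leaf and 0.97 in rosetta leaf. The level was thus the same on both sides to within 0.005. At position 55, 101 of the 116 sites had a mean of 0.9 and over, with 24 higher and 32 lower. All tRNA sites of that level, these among them, had 56 higher and 40 lower of 167. Position and level were not tested apart. Of the 105 position 55 sites with a single 5-base context, 101 read GUUCN, the T-loop sequence, which 39.4% of all sites with a context hold. A gap of at least 0.05 was reached by 6 position 55 sites, all higher in seedling and shoot and in nuclear Ala, Asn and Glu tRNAs. The widest were Ala-AGC-1-nuclei (0.762 and 0.745, against 0.623 and 0.588) and Asn-GTT-1-nuclei (0.891 and 0.898, against 0.776 and 0.786), chosen after their values were seen.

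Position 33, the uridine before the anticodon, had 3 higher (20%, beside 38% over the table) and 3 lower of 15 sites. Its median difference was -0.0695, towards the leaf types. The 12 nuclear sites among them had 1 higher and 3 lower, with a median difference of -0.112. Position 33 also held the widest single differences of the tRNA table at its 2 ends. Met-CAT-3-nuclei-Mt had 0.695 in seedling and 0.790 in shoot, against 0.259 in cauline leaf and 0.471 in rosetta leaf. Tyr-GTA-1-a-nuclei, listed at 35 but by its sequence the base before the GUA anticodon, had 0.299 in seedling and was listed at 0 in shoot, against 0.587 and 0.634 in the leaf types. Each passed in 2 of the 4 tissues. Pro-AGG-3-nuclei (listed at 32) was weak, with 0.003 and 0.109, against 0.161 and 0.194.

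**Figure D5:**
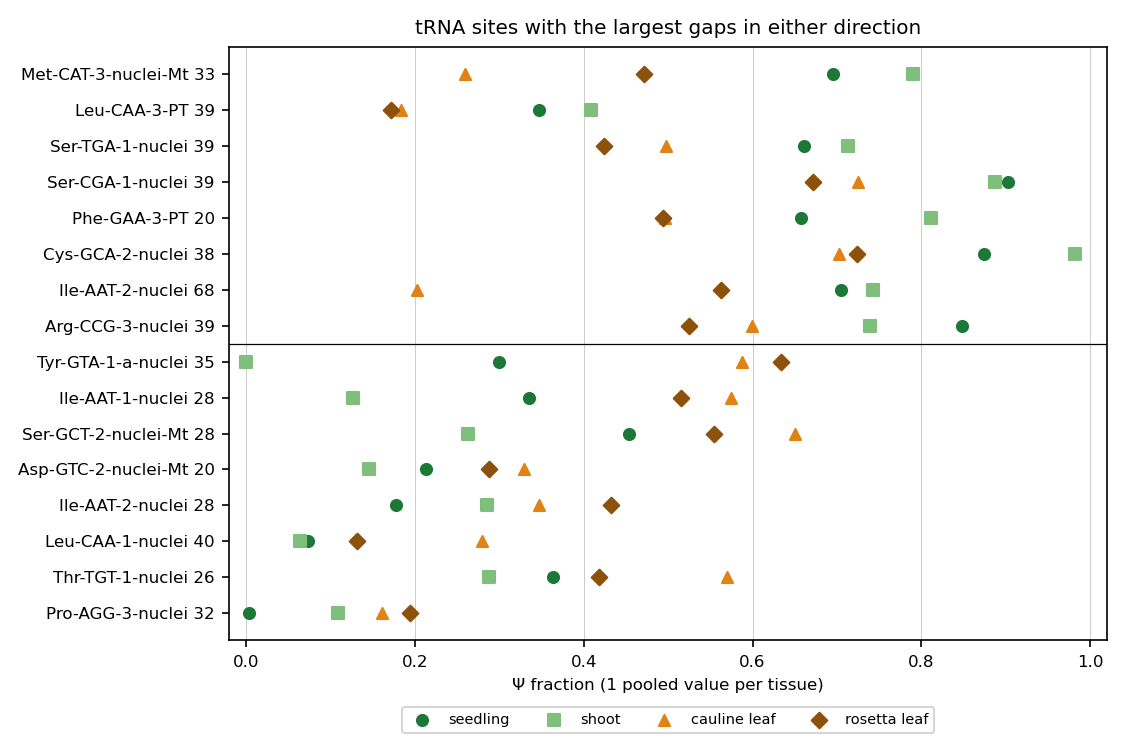
Ψ fraction (horizontal axis, 1 pooled value per tissue) of the 8 tRNA sites with the widest gap upwards (above the line) and the 8 with the widest gap downwards (below it) among sites passed in at least 1 of the 4 tissues. Gaps upwards run from 0.140 to 0.224, and downwards to 0.288 at Tyr-GTA-1-a-nuclei 35.

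Of the remaining sites with the widest gaps, Phe-GAA-3-PT 20 in the chloroplast D loop had 0.657 and 0.811, against 0.496 and 0.494. Ile-AAT-2-nuclei 68 in the acceptor stem had 0.705 and 0.743, against 0.202 in cauline leaf and 0.563 in rosetta leaf, so that its side of leaves was itself wide. Asp-GTC-2-nuclei-Mt 20 was lower, at 0.213 and 0.145, against 0.329 and 0.288. By genome, 96 of 235 nuclear (40.9%), 24 of 67 chloroplast (35.8%), 2 of 6 mitochondrial (33.3%) and 10 of 39 joint nuclear and mitochondrial sites (25.6%) were higher. In the same order 38, 9, 1 and 8 were lower. The nuclear and chloroplast shares of higher sites lay near the 38% of all tRNA sites. All 3 sites at conventional position 66 in the acceptor stem belonged to Gln tRNAs and were higher in the young tissues, among them Gln-CTG-3-nuclei 65 (0.331 and 0.582, against 0.058 and 0.192).

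At the border of the rule, values decide little. The rRNA site with the smallest gap was an unplaced chloroplast site (Pt-other 838, 0.001 and 0.014, against 0 in both leaf types), and Nu-18S 1535 (0.981 and 0.980, against 0.980 and 0.973) fell just outside because a value of each side was equal. Glu-CTC-1-nuclei 13 was the narrowest of the position 13 sites counted as higher, with 0.988 and 0.983, against 0.973 and 0.982.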

How the data were processed

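The authors aligned single reads with their own pipeline and, per site and tissue, summed gapped and ungapped reads of both replicates. The deposited Ψ fraction, from 0 to 1, was read by the authors off a calibration curve of gap ratios. The passed flag of the authors rests on p-values whose thresholds are not stated, and how the input libraries were used is not given in the sources used here. Depth per library was not analysed here, so no interval, floor or replicate error is given. A value of exactly 0 is written as listed at 0. All value columns could be assigned to a tissue (0 could not).

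The sides were compared by separation, gap and difference of means, with an exact permutation test of the tissue medians alone. Positions were placed on TAIR10.1 by requiring a T: 147 of 147 nuclear, 16 of 16 chloroplast 23S and 10 of 11 mitochondrial sites fitted. The other 12 chloroplast sites were not placed. The first base of the 25S was taken from the study's numbering. Of 144 tRNA names, 140 matched at least 1 of 684 genes. Conventional numbers count from the 5′ end up to 16, from the anticodon in its arm and from the 3′ end in the T arm and acceptor stem, and were added after the values were seen. Motifs were searched on the transcript strand only.

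Sites named were, per table and direction, the 8 with the widest gap among those passed in at least 1 of the 4 tissues, and the narrowest inside and outside the rule. Others, such as the further sites of the printed stretches and of tRNA positions 13, 28, 39, 55 and 66, were chosen after their values were seen. Members and lists were chosen with earlier results of these data known. Alternatives varied the sites entering, the gap required, the tissues and the summary. The comparison was tested on simulated data of 500 sites, and a pairwise recount gave the same call at 500. Scripts used Python 3.11.15, numpy 2.4.6, pandas 2.3.3, scipy 1.17.1, Biopython 1.88 and matplotlib 3.10.9.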

Additional observations from a re-analysis of the deposited data

How the results depend on the processing

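Sites higher in seedling and shoot outnumbered lower ones in both tables under every alternative run. The rRNA count of 104 higher became 64 among the 106 sites passed in all 4 tissues and 43 with a gap of at least 0.05, and the count of 17 lower became 10 and 3. With a gap above the larger distance within a side, 8 rRNA sites were lower. In tRNA, 132 higher became 55 with a gap of at least 0.05 and 61 with a gap above the distance within a side, and 56 lower became 8 and 12. Leaving out 1 tissue, which loosens the rule, gave 113 to 135 higher and 21 to 30 lower rRNA sites, and 156 to 175 higher and 84 to 99 lower tRNA sites. The largest count of lower sites came without shoot in both tables (30 and 99), shared in rRNA by the setting without cauline leaf. Means over sites were 0.0466 in rRNA and 0.0312 in tRNA, above the medians of 0.0228 and 0.008. Leaving out 1 tissue gave medians from 0.014 to 0.0265 in rRNA and from 0.0065 to 0.0095 in tRNA. The 8 sites with the widest gaps per table and direction could not change direction without 1 of the tissues, because each was chosen as separated. Listed in place of conventional numbers, position 13 had 19 of 22 sites higher, position 39 had 13 of 19 and position 55 had 8 of 29, and counting equal rows once, added after the data were seen, gave 127 higher and 56 lower of 334 tRNA sites. No paired analysis was possible because the tables hold 1 pooled value per tissue. Unknown depth limits all single sites, and small gaps most.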
